A study of Homo sapiens with 8 samples.

Results

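The genes described here are 9 members of the TGF-beta and BMP signalling pathways: the ligands TGFB1, TGFB2, INHBA and BMP6, the receptor TGFBR2, the inhibitory SMAD7, and the target genes TGFBI, ID1 and ID3. They were chosen by name, with earlier results of these data known. Each was found among the 25369 genes of an RNA-seq table. All 9 were among the 13369 genes tested, which had 10 or more normalized counts in 2 or more libraries. RNA was sequenced from MCF10A, a spontaneously immortalized and nontransformed human mammary epithelial line, after 7 days inside 3D hydrogels. Soft IPNs and stiff IPNs were interpenetrating networks of alginate and reconstituted basement membrane (rBM), and calcium crosslinked the alginate of the stiff IPNs only. Soft col:rBM gels mixed rBM with collagen I (col-1) at low density, while stiff col gels held dense col-1 without rBM, and neither contained alginate. Each gel had 2 libraries, 1 from each of 2 independent trials, which are called trial 1 and trial 2 after the replicate numbers. A single cell line was studied, and between stiff IPN and stiff col the alginate, the calcium, the rBM and the col-1 all differed.

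TGF-beta and activin ligands bring together type II and type I receptor kinases at the cell surface, and the activated receptors phosphorylate SMAD proteins that enter the nucleus and regulate target genes. BMP ligands use related receptors and a separate set of SMADs. In normal mammary epithelium TGF-beta is known as a brake on proliferation, and in carcinoma it is linked to matrix production and epithelial-mesenchymal transition.

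Sequence upstream of the RefSeq start is printed for TGFBI, TGFB1, INHBA and BMP6. These 4 genes were called together between stiff IPN and stiff col once the trial was a term of the fit. None of the 4 was called without that term. All 9 genes had an entry in RefSeq's promoter table (GRCh38.p14), and the 250 bases before the start were placed on hg19 by exact match. The windows are chr5:135364427-135364676 (plus strand) for TGFBI, chr19:41859828-41860077 (minus strand) for TGFB1, chr7:41742689-41742938 (minus strand) for INHBA and chr6:7726082-7726331 (plus strand) for BMP6. The INHBA window lies inside the span of the GENCODE gene, whose outermost start is further upstream. They are written 5′ to 3′ along the gene, and capitals mark the SMAD box GTCT, read on either strand, and the TATA box TATAAA.
TGFBI: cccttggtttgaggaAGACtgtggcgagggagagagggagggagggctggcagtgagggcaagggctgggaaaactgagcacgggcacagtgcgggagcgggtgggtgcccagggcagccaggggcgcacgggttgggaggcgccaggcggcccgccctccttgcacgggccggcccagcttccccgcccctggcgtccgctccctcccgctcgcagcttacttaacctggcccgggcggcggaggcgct
TGFB1: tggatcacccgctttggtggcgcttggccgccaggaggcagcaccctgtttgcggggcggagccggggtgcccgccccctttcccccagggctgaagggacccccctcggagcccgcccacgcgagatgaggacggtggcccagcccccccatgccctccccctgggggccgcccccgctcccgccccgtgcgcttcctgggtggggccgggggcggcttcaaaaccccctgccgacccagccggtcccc
INHBA: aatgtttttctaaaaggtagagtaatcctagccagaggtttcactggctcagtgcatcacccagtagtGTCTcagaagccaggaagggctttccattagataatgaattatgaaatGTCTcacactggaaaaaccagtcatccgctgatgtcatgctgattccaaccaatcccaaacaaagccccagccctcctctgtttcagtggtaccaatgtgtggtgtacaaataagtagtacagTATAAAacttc
BMP6: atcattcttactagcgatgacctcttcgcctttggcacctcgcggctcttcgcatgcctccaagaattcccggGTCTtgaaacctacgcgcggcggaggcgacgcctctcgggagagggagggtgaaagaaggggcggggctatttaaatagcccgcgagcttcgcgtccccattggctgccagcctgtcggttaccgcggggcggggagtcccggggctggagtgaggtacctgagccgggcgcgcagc
The TGFBI and BMP6 windows held 1 SMAD box each, the INHBA window held 2 SMAD boxes and 1 TATA box, and the TGFB1 window held neither motif. Among 35116 RefSeq promoters, 77.5% had a SMAD box in the same 250 bases and 10.7% had a TATA box, so a match is a description of the letters only. GC content of the windows ranged from 42.8% for INHBA to 76.8% for TGFB1, with 64.4% for BMP6 and 72.8% for TGFBI.

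Between 13065603 and 18589590 counts per library fell on genes before scaling, as estimated from the steps in the scaled values, and 3 of these corresponded to 2.4 to 3.7 normalized counts. The libraries were paired-end, and whether a count stands for a read or a read pair is not given in the sources used here. The second stiff IPN library had the fewest counts and stood apart on the first principal component, at 62.1 against at most 26.7 for the others. Fold changes of the members called between stiff IPN and soft IPN or stiff col are therefore also given without it. Calls of the other pathway genes are not given without it. Each of the 10 epithelial markers was tested, and their sum ranged from 124950 to 202957 normalized counts. The fibroblast markers COL1A2 and THY1 and the immune marker PTPRC were listed at 0 in every library. Of the other-lineage markers, COL1A1 was listed at 168 to 333, the endothelial markers KDR and PECAM1 at 22 to 267 and 2 to 32, and CD68, a lysosomal protein of macrophages and other cells, at 324 to 5017. The trials differed in each gel, and this shift was shared in part between gels. The trial was therefore also fitted as a replicate block beside the gel. Across genes the shift of stiff IPN correlated at r 0.28 to 0.40 with that of each other gel. Among the other gels r was 0.65 to 0.82, whereas the block fits a single common shift. In the fit of all 8 libraries without the block, no gene passed an adjusted p of 0.05 in any comparison of gels. That fit added 1 to each value before the log. With 5 added instead, 4 genes passed between stiff col and stiff IPN, all lower in stiff col. In bulk RNA, a lower count from fewer expressing cells and from less RNA per cell cannot be told apart.

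TGFBI had the highest level per kb of transcript and TGFB2 the lowest. Mean normalized counts per kb in the 4 gels ranged from 6280 to 22029 for TGFBI, an extracellular matrix protein induced by TGF-beta, and from 4784 to 8522 for ID1. The next levels were 1111 to 2508 per kb for ID3, 1059 to 1275 per kb for TGFBR2 and 376 to 1182 per kb for TGFB1. These ranges overlapped, and so did those of TGFBI and ID1. INHBA ranged from 40.3 to 129 per kb, SMAD7 from 36.2 to 48.6 per kb and BMP6 from 16.9 to 100.4 per kb, again with overlap. TGFB2 stood below them with 4.69 to 15.4 per kb.

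**Figure D1:**
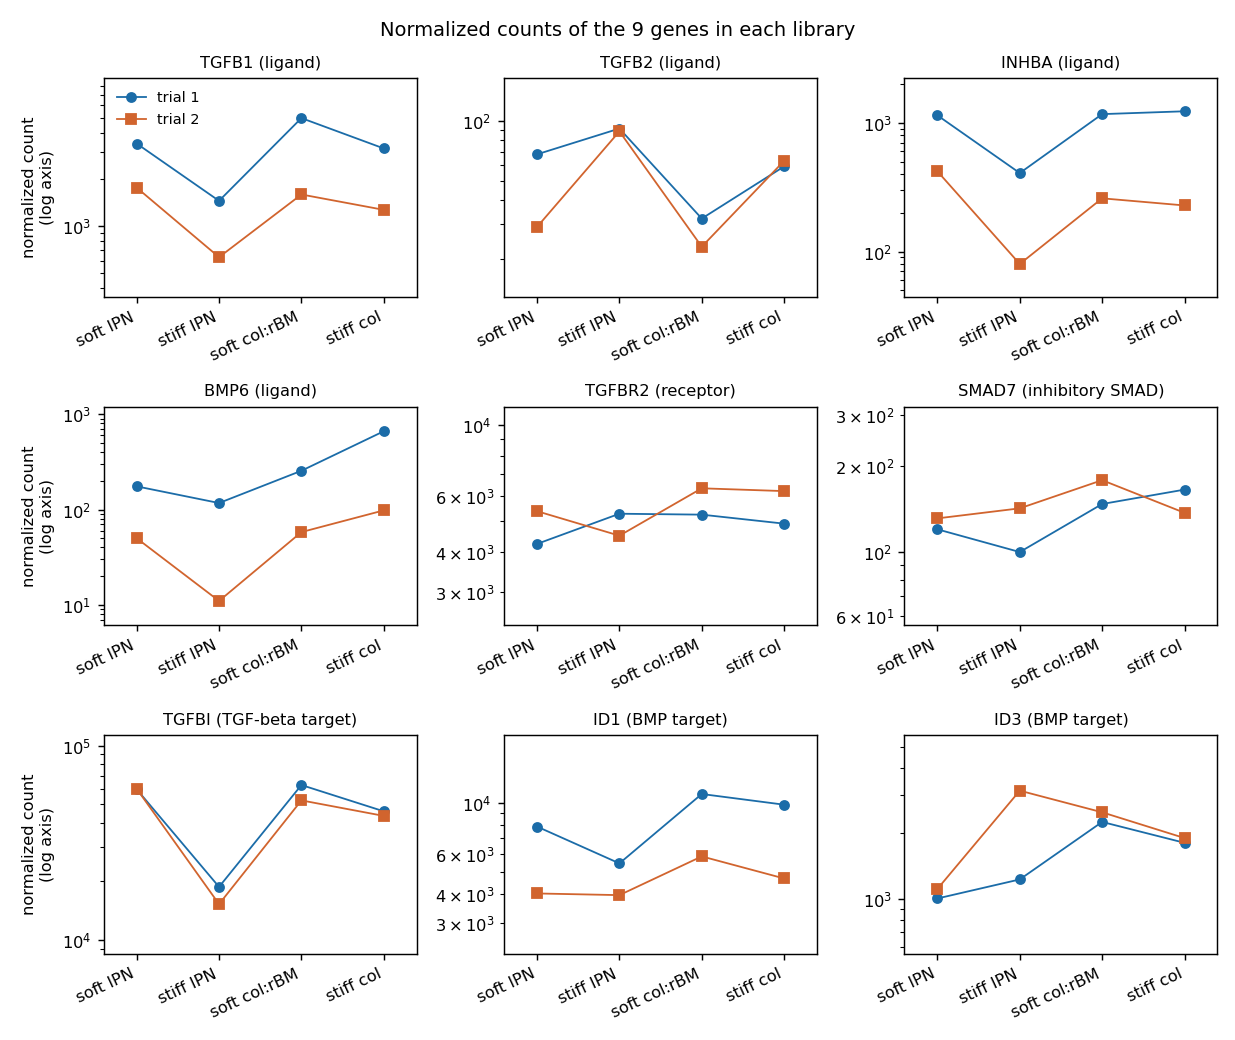
Normalized counts (log axis) of the 9 genes in the 4 gels, with circles for trial 1 and squares for trial 2. TGFBI, TGFB1 and INHBA were lowest in stiff IPN in both trials, and BMP6 reached 662 and 98 in stiff col.

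Among the ligands, TGFB1, INHBA and BMP6 shared their lowest level in stiff IPN within each trial. TGFB1 encodes the main TGF-beta ligand of epithelia and lies at chr19:41807492-41859827 on the minus strand (hg19). Its normalized counts in trials 1 and 2 were 3406 and 1772 in soft IPN, 1457 and 632 in stiff IPN, 4969 and 1601 in soft col:rBM, and 3168 and 1275 in stiff col. Both stiff IPN libraries were below both soft IPN libraries, whereas stiff IPN of trial 1 was above stiff col of trial 2. The library kit did not mark strand, and 215 exon bases of TGFB1 are shared with HNRNPUL1 on the other strand. HNRNPUL1 was also lowest in stiff IPN within each trial. It had 3699 and 4434 in soft IPN, 2824 and 2277 in stiff IPN, 4137 and 3992 in soft col:rBM, and 3585 and 3543 in stiff col. Its part in the TGFB1 counts was not tested.

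INHBA, at chr7:41706766-41745432 on the minus strand, encodes the beta A subunit of activin A and of inhibin A. Its normalized counts were 1143 and 420 in soft IPN, 407 and 80 in stiff IPN, 1168 and 259 in soft col:rBM, and 1229 and 228 in stiff col. Stiff IPN was below soft IPN without overlap, and the other 3 gels were close to each other within trial 1. The antisense gene INHBA-AS1, which shares 248 exon bases with it, was listed at 1 to 7.

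BMP6, at chr6:7726332-7881961 on the plus strand, encodes a BMP ligand. It had normalized counts of 175 and 50 in soft IPN, 117 and 11 in stiff IPN, 255 and 58 in soft col:rBM, and 662 and 98 in stiff col. Every pair of gels overlapped, and the log2 difference of trial 2 minus trial 1 within a gel lay between -3.30 and -1.79. Within each trial the order of the gels was the same, from stiff IPN through soft IPN and soft col:rBM to stiff col. TXNDC5 on the other strand, which shares 212 exon bases with BMP6, was listed at 2 to 4.

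TGFB2, at chr1:218518678-218617961 on the plus strand, encodes a second TGF-beta isoform and belongs to the YAP target list that the study used. Its pattern differed from that of the other ligands, with 68 and 29 normalized counts in soft IPN, 92 and 89 in stiff IPN, 32 and 23 in soft col:rBM, and 59 and 63 in stiff col. Stiff IPN was above each other gel without overlap, and stiff col was above soft col:rBM. These values are low beside those of the other members. TGFB2 shares 701 exon bases with TGFB2-AS1 on the other strand and 1371 with TGFB2-OT1 on the same strand. Neither of these was listed.

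The receptor and the inhibitory SMAD varied least. TGFBR2, the type II receptor for TGF-beta ligands at chr3:30648093-30735634 on the plus strand, had normalized counts of 4233 and 5361 in soft IPN, 5264 and 4492 in stiff IPN, 5229 and 6325 in soft col:rBM, and 4900 and 6198 in stiff col. Its highest library was 1.49 times its lowest. SMAD7, which blocks receptor signalling and is itself induced by TGF-beta, lies at chr18:46446223-46477335 on the minus strand. It was listed at 120 and 131 in soft IPN, 100 and 142 in stiff IPN, 147 and 178 in soft col:rBM, and 165 and 137 in stiff col. Its highest library was 1.78 times its lowest. Soft col:rBM was above both IPNs without overlap, stiff col was above soft IPN, and the other pairs of gels overlapped.

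Of the target genes, TGFBI separated the gels most clearly. TGFBI, at chr5:135364677-135399507 on the plus strand, had normalized counts of 59566 and 59917 in soft IPN, 18760 and 15302 in stiff IPN, 62653 and 52236 in soft col:rBM, and 45896 and 43472 in stiff col. Stiff IPN was below every other gel, stiff col lay between stiff IPN and both soft gels, and the soft gels overlapped. The log2 difference between the trials within a gel lay between -0.29 and 0.01.

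ID1 and ID3 encode inhibitors of basic helix-loop-helix factors and are direct BMP targets. ID1, at chr20:30193086-30194318 on the plus strand, had normalized counts of 7874 and 4028 in soft IPN, 5445 and 3961 in stiff IPN, 10915 and 5840 in soft col:rBM, and 9806 and 4681 in stiff col. Soft col:rBM was above stiff IPN without overlap, the other pairs of gels overlapped, and trial 2 was the lower in each gel. ID3, at chr1:23884417-23885992 on the minus strand, had 1002 and 1109 in soft IPN, 1227 and 3153 in stiff IPN, 2261 and 2505 in soft col:rBM, and 1811 and 1905 in stiff col. It was lowest in soft IPN, and the single library of stiff IPN from trial 2 was the highest of all 8.

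Stiff IPN was compared with soft IPN to ask how stiffness of a basement membrane gel without col-1 changes expression. TGFBI, INHBA and TGFB1 were called lower in stiff IPN once the trial was a term of the fit, and no member was called higher. TGFBI was 0.315 times its soft IPN level in trial 1 and 0.255 times in trial 2, INHBA was 0.356 and 0.19 times, and TGFB1 was 0.428 and 0.357 times. With the replicate block, 3 of 9 members passed, all of them lower, against 3.82% of all genes in either direction and 2.13% called lower. Because the members were chosen with earlier results of these data known, these shares are not a test of the set. The blocked calls over all genes were 226 higher and 285 lower, and 665 higher and 165 lower when libraries were rescaled to equal totals, with 3 members called in both. Without the block, 0 of 9 members and 0% of all genes passed, and at an unadjusted p under 0.05 there were 1 of 9 members and 1245 of 13369 genes. The median log2 fold change was -0.28 over the members and -0.01 over all genes tested.

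The log2 fold change of TGFBI in stiff IPN against soft IPN was -1.82 (SE 0.24 without the block, n = 2 per gel). Its adjusted p from limma was 0.243 without the block and 0.00669 with it. INHBA had a log2 fold change of -1.93, with an adjusted p of 0.593 without the block (SE 1.12) and 0.016 with it (SE 0.24). For TGFB1 it was -1.36, with adjusted p 0.569 (SE 0.69) and 0.017 (SE 0.18). Over 18 fits with the block, TGFBI passed in 17 (adjusted p 0.000919 to 0.186), INHBA in 16 (0.00258 to 0.234) and TGFB1 in 16 (0.00371 to 0.302). Without soft IPN replicate 2 no gene at all passed with the block, and the adjusted p was 0.186 for TGFBI, 0.234 for INHBA and 0.302 for TGFB1. Their log2 fold changes were then -1.71, -1.50 and -1.14. Without stiff IPN replicate 2 the same 3 members passed with the block, at -1.73 for TGFBI (adjusted p 0.0125), -1.77 for INHBA (0.0191) and -1.40 for TGFB1 (0.0169), and 1092 genes passed in all.

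The other members did not pass between stiff and soft IPN. BMP6 had a log2 difference of -0.58 in trial 1 and -2.09 in trial 2, and an adjusted p of 0.0787 with the block. Its log2 fold change of -1.33 became 0.32 without stiff IPN replicate 2 and no block, and with the block it was -0.79 without that library. TGFB2 differed by 0.43 and 1.58 (log2) in the trials, with an adjusted p of 0.145 with the block. ID3 differed by 0.29 and 1.51 (log2), with an adjusted p of 0.117 with the block, and its log2 fold change of 0.90 became 0.22 without stiff IPN replicate 2 in the fit without a block. ID1 had a log2 fold change of -0.28, which became 0.20 without soft IPN replicate 1 and no block. TGFBR2 and SMAD7, at 0.03 and -0.07, moved in opposite directions in the trials, and SMAD7 turned to 0.20 when the libraries were rescaled to equal totals. Without stiff IPN replicate 1, the fit with the block called 5 members, adding BMP6 (-1.87, adjusted p 0.0094) and ID3 (1.52, adjusted p 0.000668), and 2688 genes in all. Libraries of stiff and soft IPN did not overlap for 5 of 9 members, TGFBI, INHBA and TGFB1 below and TGFB2 and ID3 above, against 41.9% of all genes tested.

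**Figure D2:**
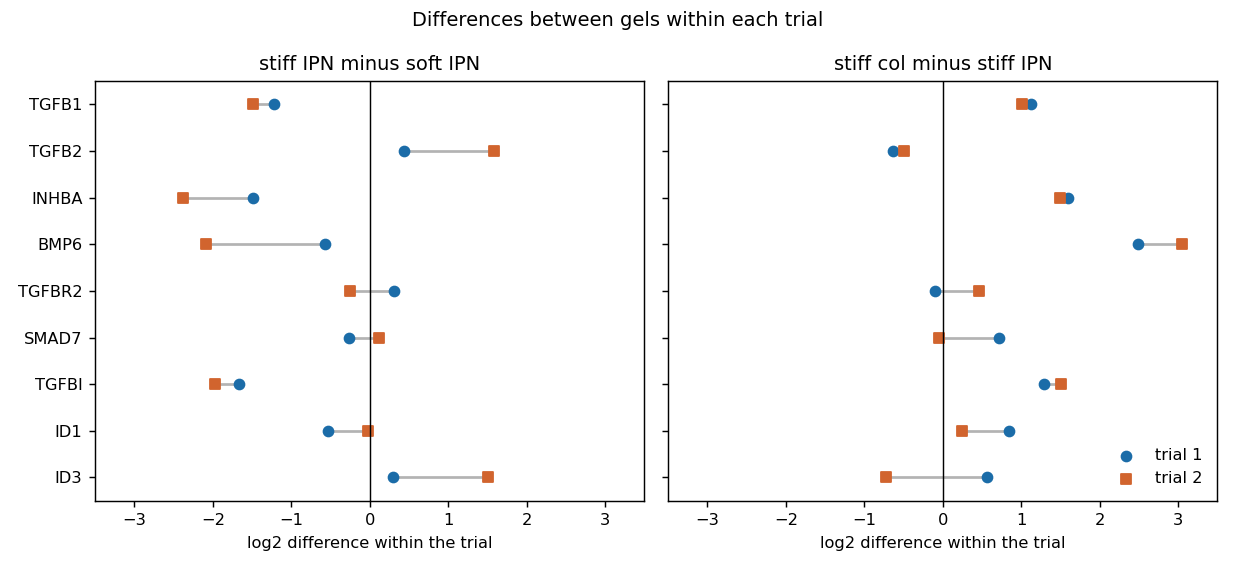
Log2 differences between gels within trial 1 (circles) and trial 2 (squares) for each of the 9 genes, on the log2(normalized count + 1) scale. TGFBI, INHBA and TGFB1 lie left of 0 for stiff IPN minus soft IPN and right of 0 for stiff col minus stiff IPN in both trials, and the comparisons share the stiff IPN libraries.

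Stiff col was compared with stiff IPN to ask what differs between stiff gels with and without col-1. BMP6, INHBA, TGFBI and TGFB1 were higher in stiff col with the block, and no member was called lower. BMP6 was 5.66 times its stiff IPN level in trial 1 and 8.91 times in trial 2, INHBA 3.02 and 2.85 times, TGFBI 2.45 and 2.84 times and TGFB1 2.17 and 2.02 times. With the replicate block, 4 of 9 members passed, all higher, against 2.47% of all genes and 1% called higher. The choice of members limits these shares in the same way. Without it, 0 of 9 members and 0% of all genes passed, with 1 member and 838 genes at an unadjusted p under 0.05. The median log2 fold change was 0.55 over the members and 0.00 over all genes. Because this comparison uses the same stiff IPN libraries as the one with soft IPN, a rise here and a fall there are not independent.

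BMP6 had the widest difference, a log2 fold change of 2.77, with a limma adjusted p of 0.799 without the block (SE 1.35) and 0.014 with it (SE 0.36). TGFBI had 1.4, with adjusted p 0.231 (SE 0.24) and 0.00781 (SE 0.16). INHBA had 1.55, with adjusted p 0.862 (SE 1.12) and 0.0232 (SE 0.24), and TGFB1 had 1.07, with 0.842 (SE 0.69) and 0.026 (SE 0.18). Over the 18 fits with the block, BMP6 passed in 17 (adjusted p 0.00158 to 0.129), TGFBI in 16 (0.00201 to 0.0722), INHBA in 16 (0.00715 to 0.197) and TGFB1 in 13 (0.012 to 0.213). Without stiff col replicate 1, the calls of all these members were lost with the block, as were most calls over all genes. The log2 fold changes were then 2.60 for BMP6, 1.45 for TGFBI, 1.32 for INHBA and 1.04 for TGFB1. Without stiff IPN replicate 2 the log2 fold changes with the block were 2.23 for BMP6, 1.31 for TGFBI, 1.39 for INHBA and 1.11 for TGFB1. Without stiff col replicate 2, the calls of TGFBI and TGFB1 were lost with the block, as were most calls over all genes.

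Of the members that were not called, TGFB2 had a log2 fold change of -0.56 and ID1 of 0.55, each in the same direction in both trials. ID3 differed by 0.56 in trial 1 and -0.73 in trial 2 (log2), so its value of -0.08 became 0.60 without stiff IPN replicate 2. With the block it passed when stiff IPN replicate 1 was left out (-0.70, adjusted p 0.012), and ID1 passed when stiff IPN replicate 2 was left out (0.81, adjusted p 0.0281). TGFBR2 and SMAD7, at 0.18 and 0.33, changed direction between the trials, and TGFBR2 was at -0.09 with the block and without stiff IPN replicate 2. Stiff col and stiff IPN did not overlap for 2 of 9 members, TGFBI above and TGFB2 below, against 30.9% of all genes tested. The smallest two-sided p of an exact permutation test with 2 libraries per gel is 0.333, so the design gives no such test of a single gene below the threshold.

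Stiff col was also compared with soft col:rBM, which addresses stiffness in gels with col-1, and no member passed in the fits of all 8 libraries. These gels differ in col-1 density and in rBM as well as in stiffness, which cannot be told apart. With and without the block this held for 0 of 9 members and 0% of all genes, and at an unadjusted p under 0.05 without the block there were TGFB2 and 140 genes in all. The log2 fold change was 1.14 for TGFB2 (SE 0.45) and 1.06 for BMP6 (SE 1.35), and the other members lay between -0.49 for TGFB1 and -0.06 for INHBA. Direction was the same in both trials for 7 of 9 members, with INHBA and SMAD7 as the exceptions. A fit of these 4 libraries alone with the replicate block, which leaves a single residual degree of freedom, called BMP6, TGFB2, TGFB1, ID3 and TGFBI and 945 genes in all.

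Soft col:rBM was compared with soft IPN to ask what differs when col-1 replaces alginate in a soft gel. No member passed (0 of 9 without the block, against 0% of genes, and 0 of 9 with it, against 0.0224%), and at an unadjusted p under 0.05 without the block there were ID3 and 190 genes in all. ID3 was 2.26 times higher in soft col:rBM in each trial, a log2 fold change of 1.17 (SE 0.39), with adjusted p 1 without the block and 0.644 with it. It passed with the block when either stiff IPN library was left out (adjusted p 0.00537 and 0.00635) and when these 4 libraries were fitted alone (0.00156). The remaining members lay between -0.69 for TGFB2 and 0.50 for ID1. TGFBI differed by -0.06, less than its SE of 0.24.

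Whether the difference between the stiff and the soft gel was itself different for the IPNs and the collagen gels was tested as an interaction. The pairs differ in more than stiffness, calcium in the IPNs and col-1 density and rBM in the collagen gels. No member passed, with 0% of genes called without the block and 0.015% with it, and at an unadjusted p under 0.05 without the block there were TGFBI and 278 genes in all. For TGFBI the stiff minus soft difference was 1.46 higher in the collagen gels on the log2 scale, with an adjusted p of 1 without the block (SE 0.33) and 0.119 with it (SE 0.22). INHBA differed by 1.88 (adjusted p 0.161 with the block), BMP6 by 2.39 (0.205) and ID3 by -1.26 (0.392). In both trials, BMP6 was lower and ID3 higher in the stiff than in the soft IPN, while between the collagen gels BMP6 was higher and ID3 lower in the stiff one. The result turned on 1 library: without stiff IPN replicate 1 the fit with the block called TGFBI (adjusted p 0.0195), INHBA (0.0217), BMP6 (0.0143) and ID3 (0.00317), among 675 genes. A test for any difference among the 4 gels called TGFBI (adjusted p 0.00816), TGFB1 (0.0211), INHBA (0.0271) and BMP6 (0.0406) with the block, 4 of 9 members against 1.58% of all genes. Without the block that test called 0% of genes and no member, with TGFBI and TGFB2 among the 702 genes at an unadjusted p under 0.05. With the block, leaving out either soft IPN library lost most calls of the test among the 4 gels, over all genes as well as among the members.

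The trials differed for 4 of the 9 genes. BMP6, INHBA, TGFB1 and ID1 were lower in trial 2 in all 4 gels, and these 4 passed limma's test of the trial, against 14.4% of all genes called lower. In either direction 3619 of 13369 genes were called. Over all genes 1693 were higher and 1926 lower in trial 2, and with libraries rescaled to equal totals 2401 were higher and 1242 lower, with 4 members called in both. BMP6 fell by 2.49 on the log2 scale (SE 0.26, adjusted p 0.00182), INHBA by 2.09 (SE 0.17, adjusted p 0.00122), TGFB1 by 1.27 (SE 0.12, adjusted p 0.00178) and ID1 by 0.85 (SE 0.12, adjusted p 0.00467). BMP6, INHBA and TGFB1, the ligands lowest in stiff IPN, were thus also those furthest apart between trials, whereas TGFBI differed by -0.16 (SE 0.11, adjusted p 0.313). TGFBR2, SMAD7, TGFB2 and ID3 did not pass either, with log2 differences of 0.18, 0.16, -0.40 and 0.43. CD68 moved with TGFB1 over the libraries, from 4222 and 2092 in soft IPN to 1220 and 324 in stiff IPN, and from 5017 and 1348 in soft col:rBM to 4360 and 990 in stiff col. KDR ran the same way, with 244 and 40 in soft IPN, 57 and 22 in stiff IPN, 267 and 36 in soft col:rBM, and 163 and 39 in stiff col. PECAM1, the other tested endothelial marker, did not. It had 19 and 32 in soft IPN, 17 and 10 in stiff IPN, 2 and 8 in soft col:rBM, and 8 and 14 in stiff col. The immune list held 2 of 5 tested markers, with PTPRC at 0, LYZ at 7 to 14 and sums of 331 to 5028, and the endothelial list held 2 of 4, with sums of 39 to 270. Their part in these results was not tested.

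**Figure D3:**
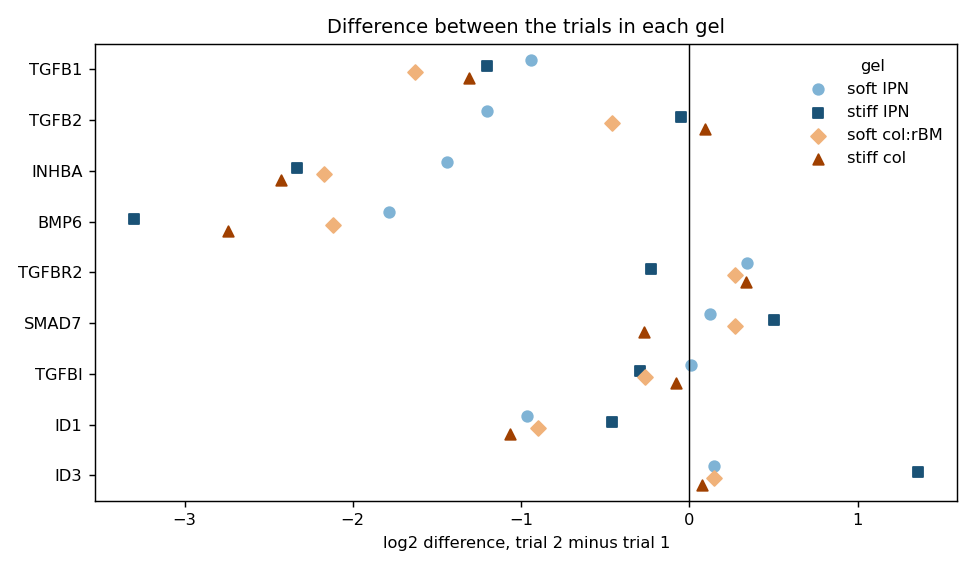
Log2 difference of trial 2 minus trial 1 in each of the 4 gels (marker shape and colour) for each of the 9 genes. BMP6, INHBA, TGFB1 and ID1 lie left of 0 in all 4 gels, and the stiff IPN of ID3 lies apart from the other gels at 1.36.

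Across the 8 libraries TGFB1 and INHBA followed each other most closely among all pairs of members, with a Pearson r of 0.96 of the log2 values, and BMP6 correlated with INHBA at 0.90. TGFBI and TGFB2 ran opposite, with r = -0.73. These values share libraries and trial shifts and are given without a test. The genes most like TGFB1 among all tested were RAC2, FBLN1 and C1orf56 (r 0.990 to 0.996), those most like INHBA were ZNF496, PHC2 and HMGXB4 (0.994 to 0.995), and those most like BMP6 were RECK, SECISBP2L and RGS17 (0.99). For TGFBI they were CPE, ZMYM3 and PRR12 (0.97 to 0.98), and for TGFB2 they were TIGD2, EFCAB2 and SCAMP1-AS1 (0.96 to 0.98). TGFBR2 was nearest to KLHL13, BTBD7 and ZC3HAV1L (0.97 to 0.98), and SMAD7 to ZNF284, ZNF175 and ZNF783 (0.92 to 0.96). ID1 was nearest to BVES, FOXA2 and GCNT4 (0.98), and ID3 to MB21D2, ASB16-AS1 and TSC1 (0.93 to 0.94).

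Another 109 genes of the pathway were grouped into 8 lists, and 72 of them passed the filter on low values. Like the members, the lists were chosen with earlier results of these data known, so their shares are not a test. Called genes were found among the TGF-beta targets, the genes of latency and activation and the BMP ligands, and the receptors, SMADs and secreted antagonists had no called gene between stiff IPN and either soft IPN or stiff col. With the block, 6 of the 72 fell and 2 rose in stiff IPN against soft IPN, 11.1% against 3.82% of all genes. In stiff col against stiff IPN 10 rose and none fell, 13.9% against 2.47% of all genes and 1% called higher. No gene of the lists passed in limma without the block, where 11 and 12 of the 72 had an unadjusted p under 0.05, as did 1245 and 838 of all 13369. The trial was called for 23 of the 72 (31.9%), with 18 lower in trial 2. Over all 13369 genes it was called for 3619, and 14.4% of genes were called lower. Without soft IPN replicate 2 the calls against soft IPN were all lost with the block, since no gene of the table passed, and without stiff col replicate 1 a total of 36 genes passed between stiff col and stiff IPN, 1 higher and 35 lower, so nearly all of these rises were lost. The median log2 fold change over the 72 was -0.09 and 0.21, against -0.01 and 0.00 over all genes tested.

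**Figure D4:**
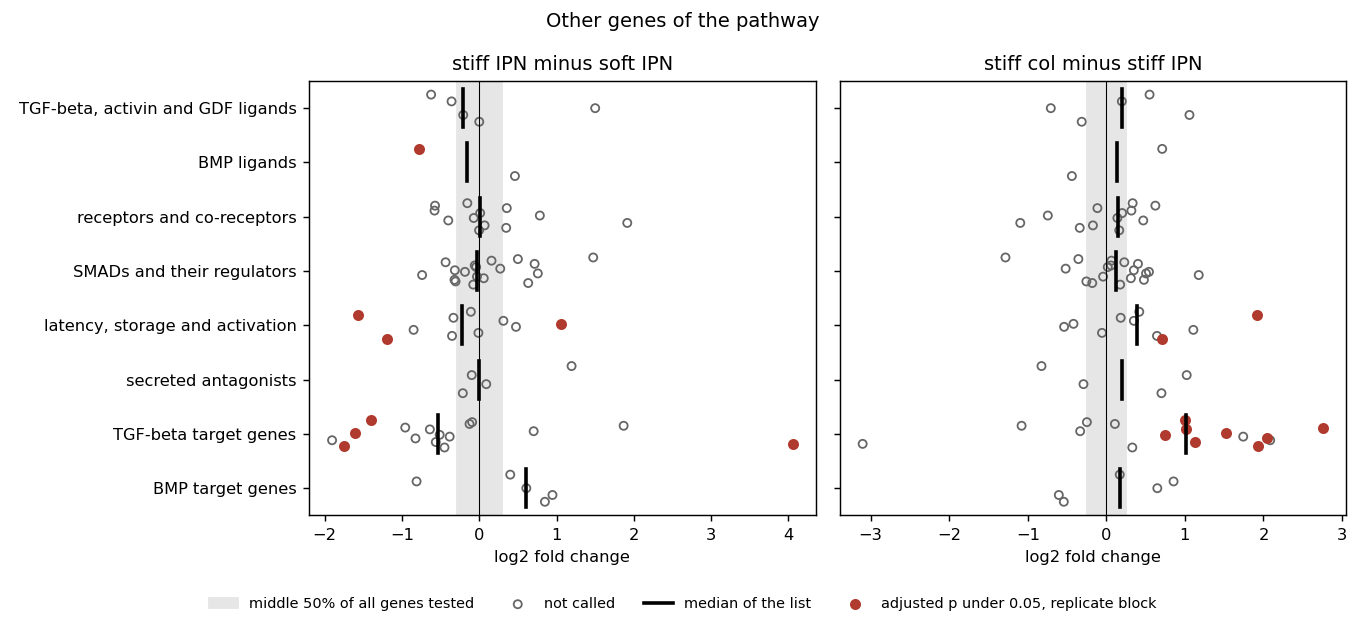
Log2 fold changes of the tested genes of 8 pathway lists in stiff IPN minus soft IPN (left) and stiff col minus stiff IPN (right), with filled points for genes called with the replicate block and black bars for each list's median. The shaded band is the middle 50% of all genes tested, and the median of the TGF-beta targets was -0.54 on the left and 1.01 on the right.

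Of 16 tested TGF-beta target genes other than TGFBI, 3 fell (ACTA2, ITGA5 and TGM2) and 1 rose (TAGLN) in stiff IPN against soft IPN with the block. In stiff col against stiff IPN, 8 of the 16 rose. Over all genes 3.82% and 2.47% were called in these comparisons, and 1% were called higher in the second. The trial was called for 7 of the 16, 6 lower (ACTA2, FN1, ITGA5, JUNB, SNAI2 and TGM2) and TAGLN higher in trial 2. Over all 13369 genes it was called for 3619, and 14.4% of genes were called lower. The median of the list was -0.54 and 1.01 on the log2 scale, while the middle 50% of all genes lay between -0.29 and 0.30 and between -0.25 and 0.26. FN1, the matrix protein fibronectin, had normalized counts of 7577 and 3936 in stiff IPN and 57569 and 23828 in stiff col, and rose by 2.76 on the log2 scale (adjusted p 0.00527 with the block, 0.33 without). MMP2, a gelatinase, rose by 2.04 (adjusted p 0.02 with the block), from 84 and 66 to 438 and 219. TGM2, a crosslinking transglutaminase, fell by 1.75 in stiff IPN against soft IPN and rose by 1.93 in stiff col against stiff IPN (adjusted p 0.0338 and 0.0253 with the block). TAGLN, an actin-binding protein of contractile cells, ran the other way, with 16 and 64 in soft IPN but 111 and 2728 in stiff IPN (4.06, adjusted p 0.0344 with the block), where trial 2 of stiff IPN held most of the counts.

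Genes that store and release latent TGF-beta included 3 called genes. LTBP4, a latent TGF-beta binding protein, had 1587 and 1191 in soft IPN, 716 and 502 in stiff IPN and 1271 and 760 in stiff col. It fell by 1.20 in stiff IPN against soft IPN (adjusted p 0.0131 with the block) and rose by 0.71 in stiff col against stiff IPN (0.0472). FBN1, the microfibril protein fibrillin-1, fell by 1.57 (0.0363) and rose by 1.92 (0.0218) in the same comparisons. ITGB6, the beta subunit of an integrin that activates latent TGF-beta, rose by 1.06 in stiff IPN against soft IPN (0.0446) and had a log2 fold change of -0.42 in stiff col against stiff IPN. These were 3 of 10 tested genes of their list in the first comparison, with a list median of -0.22, and 2 of 10 in the second, with 0.38, against 3.82% and 2.47% of all genes called.

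Other ligands and regulators held fewer called genes. Of 2 tested BMP ligands, BMP2 fell by 0.78 in stiff IPN against soft IPN (adjusted p 0.0451 with the block), with 603 and 273 in soft IPN and 374 and 149 in stiff IPN. None of the 5 other tested TGF-beta, activin and GDF ligands passed, and those with the lowest unadjusted p were INHA, with 5 to 27 normalized counts, and GDF11. Their log2 fold changes in stiff IPN against soft IPN were 1.5 and -0.62 (limma adjusted p 0.191 and 0.16 with the block). The 12 receptors and co-receptors had a median log2 fold change of 0.01 and 0.15 in the 2 comparisons, with RGMA, listed at 2 to 15, at 1.92 and ENG at -0.40 in stiff IPN against soft IPN. Among 18 SMADs and regulators, with medians of -0.04 and 0.12, SKIL and SMAD6 had the lowest unadjusted p. Their log2 fold changes in soft col:rBM against soft IPN were 0.96 and 1.68 (limma adjusted p 0.549 and 0.746 with the block). The 4 tested secreted antagonists had medians of 0.00 and 0.21, and TWSG1 and FSTL1 had log2 fold changes of 0.70 and 1.02 in stiff col against stiff IPN. Among 5 tested BMP targets besides ID1 and ID3, none passed, with medians of 0.61 and 0.17. ID2 had 87 and 144 normalized counts in soft IPN and 304 and 485 in soft col:rBM (1.77, adjusted p 0.0711 with the block), and MSX1 had a log2 fold change of 0.95 in stiff IPN against soft IPN (adjusted p 0.146 with the block).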

How the data were processed

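The deposited table holds 1 value per gene and library, a signal that the authors made by scaling HTSeq gene counts to 1 factor per library and rounding, called a normalized count here. The submitters' processing notes name Trim Galore 0.3.3, TopHat2 2.0.13, SAMtools 1.1, HTSeq, DESeq2 and R 3.2.0 with hg19, the paper names Bowtie2 as the aligner, and the annotation and strand setting are not given in the sources used here. All 8 columns were used. Values were fitted as log2(normalized count + 1) with limma 3.58.1 (statmod 1.5.0, R 4.3.3), 1 mean per gel, trend and robust moderation, and Benjamini-Hochberg adjustment over the 13369 genes with at least 10 normalized counts in at least 2 libraries. The threshold was 0.05. Count tests were not used because the values are scaled and rounded.

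The replicate numbers pair the libraries: the paper describes independent trials, and the difference of replicate 2 from replicate 1 correlated across genes in each of 6 gel pairs (r 0.28 to 0.82). The pairs with stiff IPN had the lowest values (r 0.28 to 0.40). A fit with the trial as a replicate block is therefore given beside each result. The members and gene lists were chosen with earlier results of these data known. All 9 members are named, with up to 4 called genes per other list by size of change, or else the 2 with the lowest p, and the 3 genes most correlated with each member. Positions are from GENCODE 44 lifted to hg19, and Python 3.11.15 with pandas 2.3.3 and matplotlib 3.10.9 was used. The fits were tested on simulated data with either no trial shift or the same shift in every gel. The weaker sharing of the shift by stiff IPN was therefore not tested. Alternatives were other scalings, filters, pseudocounts and moderation, fits of the compared gels alone and leaving out each library. Those of the blocked fit were added after seeing the data. Of the symbols, 28 had turned into dates and are not named.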

Additional observations from a re-analysis of the deposited data

How the results depend on the processing

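Each gel had 2 libraries in 2 trials, so 1 library could decide a call. Without the replicate block no member passed in the fits of all 8 libraries. With the replicate block, 3 members passed between stiff and soft IPN and 4 between stiff col and stiff IPN, and fitting the compared gels alone with the block gave the same counts. That fit called 5 members between stiff col and soft col:rBM, among 945 genes in all, and 1 between soft col:rBM and soft IPN, among 45. The test among the 4 gels called 4 members with the block. The alternatives to the blocked fit were added after seeing the data. Without trend and robust moderation it called 1 member between the IPNs, 2 between stiff col and stiff IPN and 0 among the 4 gels. Over all 13369 genes it then called 35, 121 and 6, against 511, 330 and 211 with trend and robust moderation. When single libraries were left out with the block, the number of members called ranged from 0 to 5 between the IPNs, from 0 to 5 between stiff col and stiff IPN, from 0 to 1 between soft col:rBM and soft IPN, from 0 to 4 for the interaction and from 0 to 6 among the 4 gels. The number of calls over all genes also rose and fell with the library left out. These ranges are therefore not particular to the members. The cause was not tested.

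Of 54 fold changes followed, 34 kept their sign under every alternative run, with or without the block, and 20 changed it under at least 1. Rescaling to equal library totals moved the median log2 fold change of all genes to 0.26 between stiff and soft IPN and to -0.21 for the interaction. It turned SMAD7 between stiff and soft IPN to 0.20, TGFBI between soft col:rBM and soft IPN to 0.045, and the interactions of TGFB2 to -0.083 and of ID1 to -0.18. Leaving out a library without the block leaves the trials unbalanced, and the log2 fold changes that changed sign then had these ranges. Between stiff and soft IPN they were -2.98 to 0.32 for BMP6, -0.14 to 0.20 for TGFBR2, -0.32 to 0.18 for SMAD7 and -0.76 to 0.20 for ID1. Between stiff col and stiff IPN the range was -0.76 to 0.60 for ID3, and TGFBR2 turned to -0.093 with the block and without stiff IPN replicate 2. Between stiff col and soft col:rBM they were -1.30 to 0.33 for TGFB1, -1.27 to 1.16 for INHBA, -0.31 to 2.43 for BMP6, -0.23 to 0.11 for TGFBR2, -0.24 to 0.032 for SMAD7 and -0.77 to 0.30 for ID1. Between soft col:rBM and soft IPN they were -0.62 to 1.02 for TGFB1, -1.42 to 0.75 for INHBA, -0.68 to 1.43 for BMP6 and -0.19 to 0.069 for TGFBI. For the interaction they were -0.47 to 0.73 for TGFB2, -0.26 to 0.079 for TGFBR2, -0.28 to 0.22 for SMAD7 and -0.49 to 0.57 for ID1.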
